A study of Homo sapiens with 4 samples.

Results

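The interferon-stimulated genes studied here are 43 genes chosen by symbol, each named by 1 row of a count table of 35606 genes. They were compared between K562 cells expressing the JAZF1-SUZ12 fusion and mock K562 cells, with 2 libraries per group, numbered 1 and 2. K562 cells come from an established chronic myeloid leukaemia culture with erythroid traits. The fusion arises by a translocation found in stromal tumours of the endometrium and puts sequence of JAZF1 in front of SUZ12, which belongs to Polycomb repressive complex 2, an enzyme complex that silences genes by methylating histone H3. The labels give neither the vector nor the time of expression, do not say whether a line is 1 clone or a pool, and do not say what the mock cells received. They name the uterus as the source of every sample although the line is K562. Nothing states that the libraries of a group came from separate cultures, so that p-values measure the spread between these libraries, which may be technical.

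Type I interferons bind the receptor IFNAR1/IFNAR2, whose kinases JAK1 and TYK2 activate the transcription factor complex ISGF3, of which STAT2 and IRF9 are part. ISGF3 binds the interferon-stimulated response element (ISRE) in the promoters of genes such as ISG15, IFIT1 and MX1. Interferon-gamma acts mainly through another element, the gamma-activated site (GAS), and induces IRF1. The products detect foreign RNA, degrade it, block viral entry or release, or return to the pathway as its factors and inhibitors. The type I interferon genes lie on the short arm of chromosome 9, in a segment known to be deleted in K562.

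Promoters are shown to let some members whose level rose be set beside classical members whose level was not called. Each line is the 250 bases before the RefSeq start site (GRCh38.p14), 5′ to 3′ on the gene's strand. Capitals mark matches to a form of the ISRE, GAAA and a further GAAA with 2 bases of any kind between them, on either strand, except in IRF1, where they mark TTCNNNGAA, a form of the GAS that reads the same on both strands. OAS3 (chr12:112938224-112938473, plus strand), LGALS3BP (chr17:78979924-78980173, minus strand) and PARP14 (chr3:122680589-122680838, plus strand) rose and hold ISRE matches:
OAS3: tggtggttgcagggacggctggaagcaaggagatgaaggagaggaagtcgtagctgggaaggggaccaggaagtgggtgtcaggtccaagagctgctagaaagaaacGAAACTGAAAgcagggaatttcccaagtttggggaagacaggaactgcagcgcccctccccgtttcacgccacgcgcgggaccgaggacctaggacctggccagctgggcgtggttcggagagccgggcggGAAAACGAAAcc
LGALS3BP: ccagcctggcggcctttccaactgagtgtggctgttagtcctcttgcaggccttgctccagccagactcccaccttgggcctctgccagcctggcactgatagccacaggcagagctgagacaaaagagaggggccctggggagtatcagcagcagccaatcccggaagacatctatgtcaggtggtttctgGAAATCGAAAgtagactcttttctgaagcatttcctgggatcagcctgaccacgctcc
PARP14: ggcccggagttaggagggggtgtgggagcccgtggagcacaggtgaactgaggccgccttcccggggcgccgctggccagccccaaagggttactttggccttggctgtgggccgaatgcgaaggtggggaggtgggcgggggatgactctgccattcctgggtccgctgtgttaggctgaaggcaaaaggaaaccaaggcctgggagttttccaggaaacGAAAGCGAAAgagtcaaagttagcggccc
IRF1 (chr5:132490774-132491023, minus strand) rose and holds a GAS match but no ISRE match in its window:
IRF1: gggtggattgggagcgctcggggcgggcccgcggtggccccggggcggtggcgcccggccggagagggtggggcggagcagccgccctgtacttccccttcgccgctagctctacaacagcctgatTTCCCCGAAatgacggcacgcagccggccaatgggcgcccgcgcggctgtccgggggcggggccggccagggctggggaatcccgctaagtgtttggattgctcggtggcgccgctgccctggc
ISG15 (chr1:1013247-1013496, plus strand) and IFIT1 (chr10:89392373-89392622, plus strand) were not called and hold ISRE matches:
ISG15: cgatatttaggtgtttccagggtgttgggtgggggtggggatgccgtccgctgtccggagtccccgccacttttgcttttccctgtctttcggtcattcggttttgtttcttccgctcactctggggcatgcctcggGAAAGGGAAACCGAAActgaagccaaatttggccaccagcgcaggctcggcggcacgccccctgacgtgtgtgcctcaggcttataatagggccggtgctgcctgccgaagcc
IFIT1: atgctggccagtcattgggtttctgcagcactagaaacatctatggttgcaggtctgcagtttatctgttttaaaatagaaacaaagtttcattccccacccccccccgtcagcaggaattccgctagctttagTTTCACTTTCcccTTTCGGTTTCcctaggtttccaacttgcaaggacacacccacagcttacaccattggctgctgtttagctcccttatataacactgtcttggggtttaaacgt

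The OAS3 matches began at positions -143 and -12 from the start site, that of LGALS3BP at -58 and that of PARP14 at -29. ISG15 held a pair that began at -113 and -107 and overlap each other, and IFIT1 a pair on the opposite strand that began at -116 and -103. The GAS match of IRF1 began at -124, and PARP14 also held a GAS match, not marked above, that began at -40. Of the 43 members, 35 had a window of 300 bases, from 250 before to 50 after the start, and 24 of these (68.6%) held an ISRE match, against 4.38% of 27305 genes with a window. A GAS match was found in 11 members (31.4%), against 9.38% of the genes, and in 4 members an ISRE and a GAS match overlapped. The windows of IRF7, OAS2, OASL, IFIT2, IFITM2, MX2, USP18 and TRIM22 were not analysed here. Of 20 tested members with an ISRE match, 3 were called higher, as OAS3, LGALS3BP and PARP14, and 1 lower, BST2. Of 11 tested members without one, 1 was higher, IRF1, and 1 lower, IFI30. Higher calls made up 13.3% and lower calls 11.4% of the 14750 genes in the test, so that these counts are near the share of all genes. A match is a run of letters in a window and not evidence of binding.

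The labels were checked first. JAZF1 had 12 and 27 estimated counts in mock replicates 1 and 2 and 574 and 731 in JAZF1-SUZ12 replicates 1 and 2. The change of 5.05 on the log2 scale (edgeR, adjusted p = 1.07e-10) ran from 4.60 without mock replicate 1 to 5.70 without mock replicate 2. SUZ12 stood at 136 and 131 CPM (counts per 1000000 counts of the library) in mock and 275 and 269.5 CPM in JAZF1-SUZ12 libraries. Its log2 fold change was 1.005 in edgeR. The authors' deposited table gave larger log2 fold changes, 6.82 for JAZF1 and 1.26 for SUZ12, and the reason for the difference was not tested. Total counts ranged from 17260940 to 24423038 per library. Erythroid markers summed to between 11270 and 11630 CPM in mock and between 13270 and 13410 CPM in JAZF1-SUZ12 libraries. Of the markers of plasmacytoid dendritic cells, the main producers of type I interferon, 3 of 5 had at most 3 counts in every library. Their sum was 30.05 to 30.3 CPM in mock and 40.0 to 41.5 CPM in JAZF1-SUZ12 libraries, most of it from TCF4, which other cells also express. Monocyte and macrophage markers, 2 of 6 of them with at most 3 counts in every library, summed to 32.1 to 36.7 CPM in mock and 24.6 to 25.1 CPM in JAZF1-SUZ12 libraries, most of it from LYZ. Lymphocyte markers summed to 18.7 to 21.8 CPM in mock and 20.0 to 23.2 CPM in JAZF1-SUZ12 libraries, and stromal markers to 1.13 to 1.81 and 1.31 to 1.74 CPM, with CD2, MS4A1 and LUM at 0 in every library. The part of other cells in the results was not tested. In such bulk libraries, a change in the number of cells that express a gene and a change in RNA per cell cannot be told apart.

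Most interferon-stimulated genes were not called, and those that were called went both ways. OAS3 and LGALS3BP rose about as much as each other, to 2.13 and 2.14 times their mock level, MX2 rose 2.01-fold, IRF1 1.39-fold and PARP14 1.25-fold. BST2, IFI30 and IFITM2 fell by smaller amounts. The remaining 30 tested members were not called, among them ISG15, IFIT1, IFIT2, IFIT3, MX1, RSAD2, OAS1, STAT2, IRF7 and IRF9, which are among the genes most used to read an interferon response. Of the 38 members with enough counts to be tested, 8 (21.1%) passed an adjusted p of 0.05 in edgeR's quasi-likelihood test, against 24.7% of 14750 genes tested. Higher calls numbered 5, against a background of 13.3%, and lower calls 3, against 11.4%. The share of members called was thus near that of all genes, and at least a 2-fold rise, found for 3 members, was called for 5.55% of all genes. In the authors' deposited table, 2 of 40 members with an adjusted p were called, OAS3 and LGALS3BP, both higher, against 8.50% of all its genes called in either direction and 4.93% called higher.

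The median log2 fold change of the 38 tested members was 0.096, against 0.003 over all genes tested, and 25 members (65.8%) had a value above 0, against 50.5% of all genes. This lean rested mainly on 1 library. Relative to the mean of mock, the members' median log2 CPM was 0.031 in JAZF1-SUZ12 replicate 1 and 0.275 in JAZF1-SUZ12 replicate 2, and -0.017 and 0.017 in the mock libraries. Without JAZF1-SUZ12 replicate 2 the median fold change was 0.021, without JAZF1-SUZ12 replicate 1 it was 0.242, and without mock replicate 1 it was 0.055. With no filter on low counts it was 0.181 over 42 members, against 0.027 over all genes. Both JAZF1-SUZ12 libraries lay above both mock libraries for 12 of the 38 members, against 33.8% of all genes tested, and below both for 5, against 27.2%. For the other 21 the groups overlapped.

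**Figure D1:**
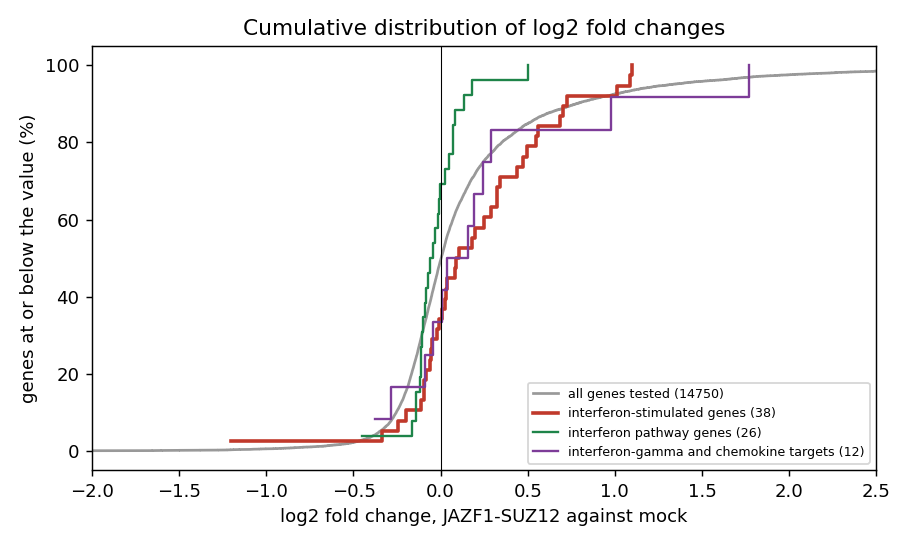
Cumulative distribution of log2 fold changes, JAZF1-SUZ12 against mock (x axis), as the percent of genes at or below each value (y axis), for all 14750 genes tested, the 38 interferon-stimulated genes, 26 genes of the interferon pathway and 12 interferon-gamma and chemokine targets. The curve of the interferon-stimulated genes crosses 50% near 0.096 and ends at 1.10, below the upper tail of all genes.

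The depth sets how large a change could have been missed. For 26 of the 38 members the upper 95% bound of the change lay under a 2-fold rise, against 80.0% of all genes tested, and 21 of these were members that were not called. For ISG15, whose product is a ubiquitin-like modifier, the interval of the log2 fold change ran from -0.26 to 0.32, and for STAT2 from -0.17 to 0.16. The 9 uncalled members whose interval reached past 2-fold were MX1, IFI6, HERC6, ISG20, IFI16, IFIT1, IFIT2, DDX60 and SAMD9L, with mean counts between 10.5 for DDX60 and 65.8 for MX1. At this depth a 2-fold rise lies within the intervals of these genes.

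**Figure D2:**
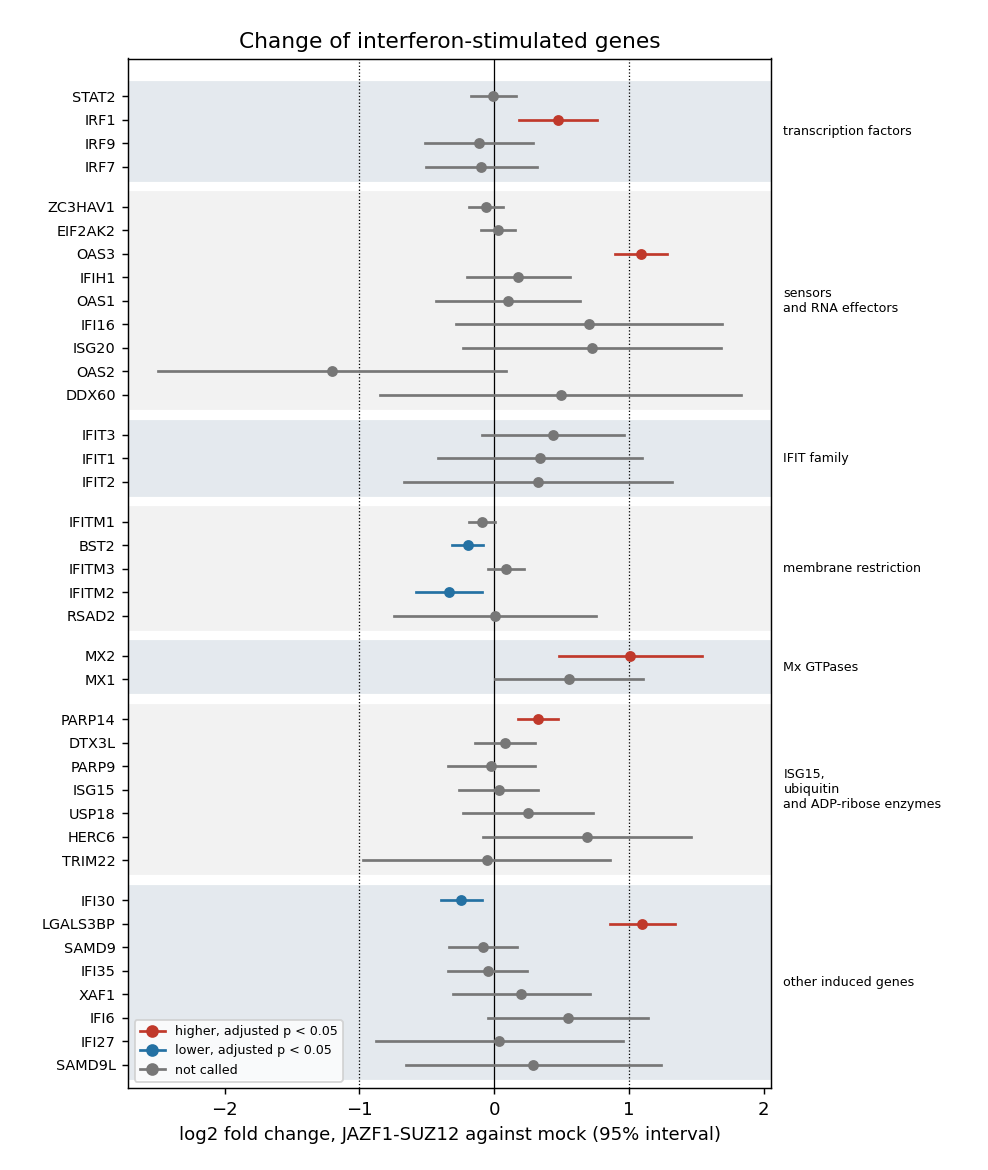
Log2 fold change of each tested member, JAZF1-SUZ12 against mock (x axis), with its 95% interval as a bar, grouped by role; red marks members called higher, blue lower and grey not called, and dotted lines mark 2-fold changes. OAS3, LGALS3BP and MX2 are the members whose estimate reaches a 2-fold rise, and ISG15 and STAT2 sit at 0.03 and -0.01.

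Levels were compared between genes only per length, as TPM computed from the longest GENCODE 29 transcript, so that they are approximate. In mock, IFITM1 stood highest at 980.5 ± 38.2 TPM, followed by BST2 at 254.5 ± 5.99 and IFITM3 at 202 ± 12.1 TPM (SD, n = 2 each), then by IFI30 at 60.3 ± 4.31 TPM. IFITM2 (43.9 ± 0.184) and STAT2 (41.6 ± 1.56 TPM) were next to each other, as were ISG15 (32.8 ± 2.83) and ZC3HAV1 (32.3 ± 0.571 TPM; SD, n = 2 each), and the latter pair did not differ beyond its spread. OAS3 stood at 6.12 ± 0.133 and LGALS3BP at 9.96 ± 0.386 TPM in mock, and at 13.1 ± 1.297 and 21.5 ± 0.191 TPM in JAZF1-SUZ12 libraries (SD, n = 2 each). The K562 cells thus held high levels of the IFITM1, IFITM3 and BST2 transcripts in both groups. In contrast, IFIT1 (0.848 ± 0.243), RSAD2 (1.26 ± 0.196) and MX1 (1.77 ± 0.111 TPM; SD, n = 2 each) were low in mock.

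**Figure D3:**
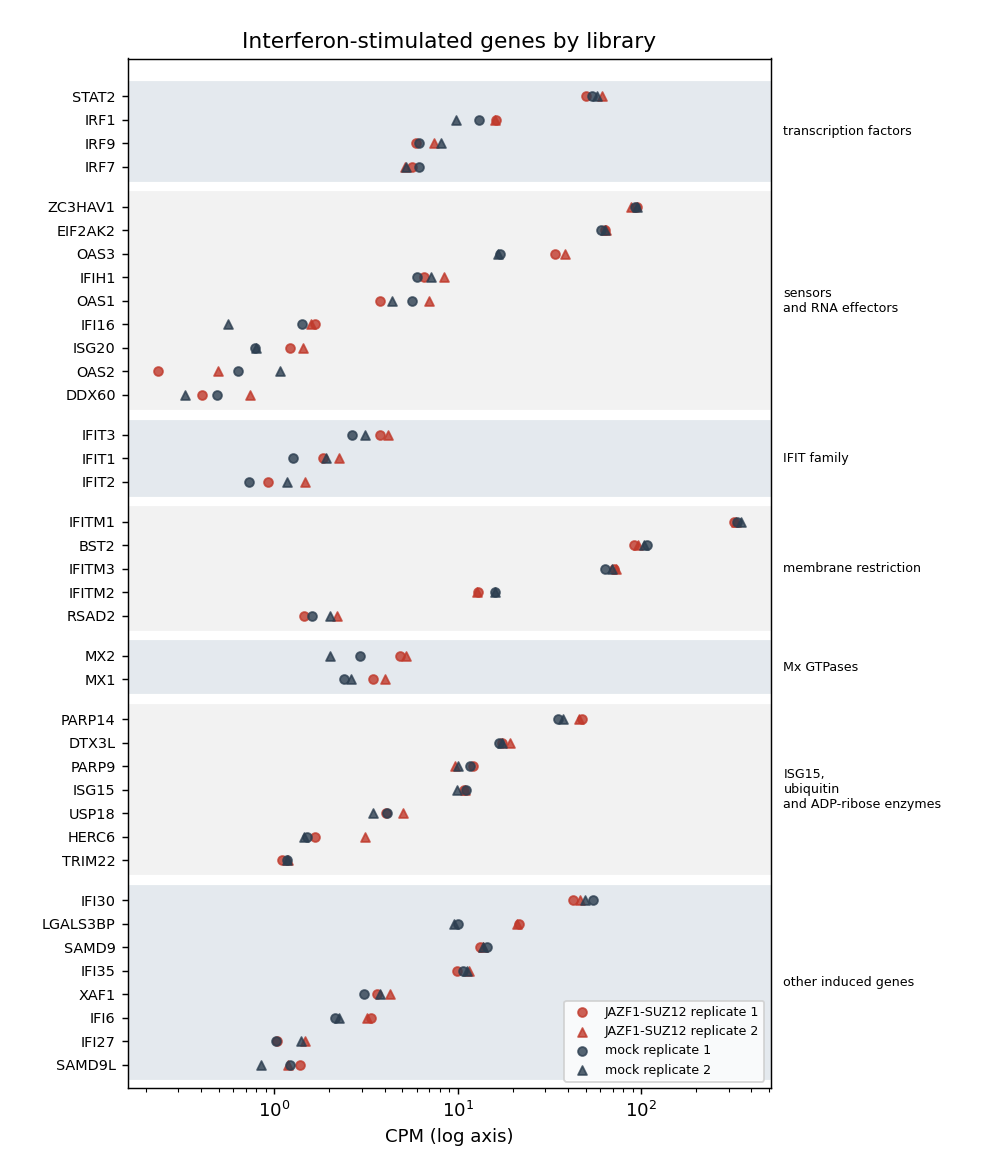
CPM of the 38 tested members in each library (x axis, log scale), grouped by role, in red for JAZF1-SUZ12 and dark blue for mock, with circles for replicate 1 and triangles for replicate 2. Both red points lie to the right of both dark blue points for 12 members, among them OAS3, LGALS3BP, MX2, PARP14 and IRF1, which were called, and MX1, IFI6, ISG20 and IFIT3, which were not; for 21 members the colours mix.

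Among the 4 transcription factors, IRF1 rose, against 13.3% of all genes called higher, and the other 3 were not called. IRF1 (ENSG00000125347; GRCh38 chromosome 5, 132481609 to 132490798, minus strand), an early target of interferon-gamma, stood at 13.01 and 9.81 CPM in mock and at 16.2 and 16.01 CPM in JAZF1-SUZ12 libraries. The JAZF1-SUZ12 libraries agreed closely and lay above both mock libraries, which differed from each other. On the log2 scale it rose by 0.47 (standard error 0.14; edgeR, adjusted p = 0.0186). The call was lost with DESeq2 (adjusted p = 0.0732) and without mock replicate 2, where the change was 0.27 (edgeR, adjusted p = 0.205), and the authors' deposited table gave 0.21 with an adjusted p of 0.809. STAT2 had 54.05 and 57.2 CPM in mock and 50.3 and 61.5 CPM in JAZF1-SUZ12 libraries, so that the groups overlapped fully. Its log2 fold change was -0.01 (edgeR, adjusted p = 0.964). IRF9, which gives ISGF3 its DNA contact, and IRF7, which amplifies the transcription of interferon genes, had uncalled log2 fold changes of -0.12 and -0.09 (edgeR, adjusted p of 0.708 and 0.771).

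The sensors and RNA effectors held 1 call, higher, among 9 tested members, against 13.3% of all genes called higher. OAS3 (ENSG00000111331; chromosome 12, 112938352 to 112973249, plus strand), which makes the oligoadenylates that activate the ribonuclease RNase L, had 348 and 353 counts in mock and 583 and 941 in JAZF1-SUZ12 libraries. In CPM these were 17.02 and 16.6 against 33.8 and 38.5, with a wide gap between the groups. This rise was 1.09 on the log2 scale (standard error 0.09; edgeR, adjusted p = 3.15e-07), and over 12 alternatives it stayed between 0.9985 and 1.16 and was called in each. The authors' deposited table gave 0.92 with an adjusted p of 8.00e-05. ZC3HAV1, the antiviral protein ZAP that binds CpG-rich RNA, stood at 92.4 and 95.1 CPM in mock and 95.1 and 88.0 CPM in JAZF1-SUZ12 libraries (log2 fold change -0.06; edgeR, adjusted p = 0.532). EIF2AK2, the kinase PKR, was at 60.3 and 63.3 against 63.3 and 64.7 CPM, which is hardly a difference. The change of 0.03 was not called (edgeR, adjusted p = 0.785). IFIH1, the RNA sensor MDA5, was at 6.02 and 7.14 CPM in mock and 6.55 and 8.48 CPM in JAZF1-SUZ12 libraries, with overlap (edgeR, adjusted p = 0.522). The DNA sensor IFI16, the nuclease ISG20 and the helicase DDX60 had log2 fold changes of 0.70, 0.73 and 0.49 at mean counts of 27.3, 22.3 and 10.5, and none was called (edgeR, adjusted p = 0.301, 0.270 and 0.621).

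OAS3 lies between OAS1 and OAS2, 5.13 and 5.15 kb away, and neither neighbour was called. OAS1 was at 5.62 and 4.37 CPM in mock and 3.77 and 6.96 CPM in JAZF1-SUZ12 libraries, the JAZF1-SUZ12 values lying on both sides of mock. OAS2 had 13 and 23 counts in mock and 4 and 12 in JAZF1-SUZ12 libraries, a log2 fold change of -1.20 that was not called (edgeR, adjusted p = 0.168). The log2 ratio of OAS3 to OAS1 counts within a library was 1.60 and 1.92 in mock and 3.17 and 2.47 in JAZF1-SUZ12 libraries, and that of OAS3 to OAS2 was 4.74 and 3.94 against 7.19 and 6.29. Both ratios were higher in each JAZF1-SUZ12 library than in each mock library, and the difference between the neighbours was not tested.

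**Figure D4:**
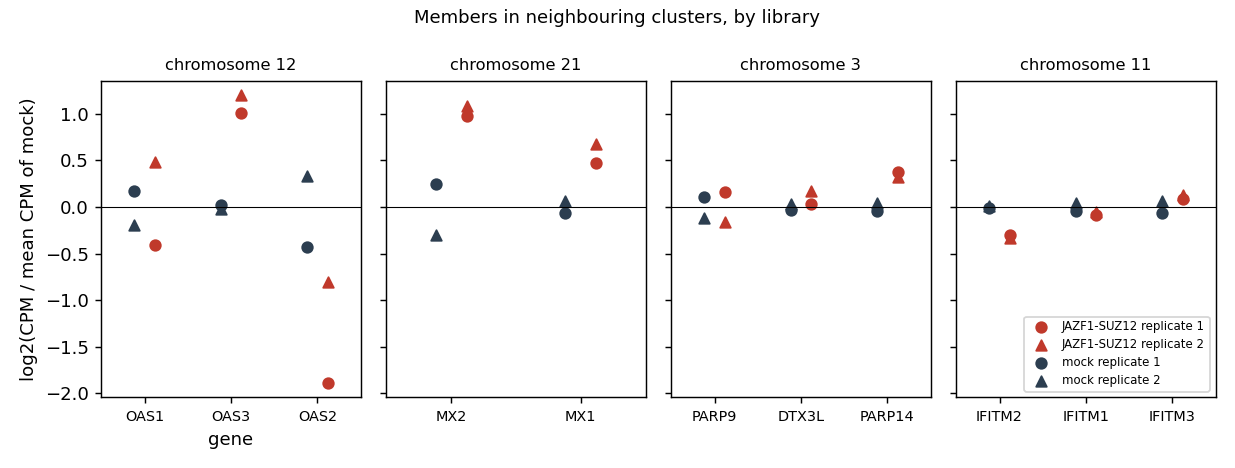
Log2 of CPM over the mean CPM of mock (y axis) for members that are neighbours on chromosomes 12, 21, 3 and 11 (x axis, gene), in red for JAZF1-SUZ12 and dark blue for mock, with circles for replicate 1 and triangles for replicate 2. OAS3 and MX2 lie near 1 in both JAZF1-SUZ12 libraries, while OAS1 scatters around 0 and OAS2 lies below it.

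The Mx GTPases, dynamin-like proteins that block viral nucleocapsids, were both above mock, and 1 of the 2 was called higher, against 13.3% of all genes. MX2 (ENSG00000183486; chromosome 21, 41361943 to 41409390) had 60 and 43 counts in mock and 84 and 128 in JAZF1-SUZ12 libraries, or 2.94 and 2.02 against 4.87 and 5.24 CPM. It rose by 1.010 on the log2 scale (standard error 0.25; edgeR, adjusted p = 0.00777), from 0.75 without mock replicate 2 to 1.29 without mock replicate 1. The authors' deposited table gave 1.05 and did not call it (adjusted p = 0.137). MX1, 10.9 kb from MX2, was at 2.40 and 2.63 CPM in mock and 3.48 and 4.01 CPM in JAZF1-SUZ12 libraries, with no overlap. The value of 0.56 on the log2 scale did not pass (edgeR, adjusted p = 0.133).

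No member of the IFIT family, which binds foreign RNA ends, was called among 3 tested by edgeR, DESeq2 or limma-voom, and 0 had an unadjusted p under 0.05 in edgeR. The share of all genes called was 24.7% with edgeR and 16.3% with DESeq2, and 3 genes are few to set beside it. IFIT3 stood at 2.64 and 3.15 CPM in mock and 3.77 and 4.18 CPM in JAZF1-SUZ12 libraries, again without overlap (log2 fold change 0.44; edgeR, adjusted p = 0.220). IFIT1 had 26 and 41 counts in mock and 32 and 55 in JAZF1-SUZ12 libraries, which overlap in CPM (0.34; edgeR, adjusted p = 0.535). IFIT2 had 15 and 25 counts against 16 and 36 and likewise overlapped (0.33; edgeR, adjusted p = 0.666).

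Among the 5 membrane restriction factors, 2 fell, against 11.4% of all genes called lower, a count that rests on few genes. BST2 (ENSG00000130303; chromosome 19, 17402939 to 17405648), or tetherin, which holds budding virions at the cell surface, stood at 107.5 and 104.4 CPM in mock and at 91.4 and 96.2 CPM in JAZF1-SUZ12 libraries. It fell by 0.20 on the log2 scale (standard error 0.05; edgeR, adjusted p = 0.0150), and the call was lost without mock replicate 1 (adjusted p = 0.0750). The authors' deposited table did not call it (adjusted p = 0.153). IFITM2, which hinders fusion of viral and cell membranes, stood at 15.9 and 16.1 CPM in mock and 12.98 and 12.7 CPM in JAZF1-SUZ12 libraries, each group being tight. The fall was -0.34 on the log2 scale (standard error 0.12; edgeR, adjusted p = 0.0428), and 8 of 12 alternatives ended the call, among them DESeq2 (adjusted p = 0.191) and leaving out any 1 library. The authors' deposited table has no call for it (adjusted p = 0.288). IFITM1, the most abundant member, was at 332 and 353 CPM in mock and 322 and 330 CPM in JAZF1-SUZ12 libraries, a change of -0.09 that was not called (edgeR, adjusted p = 0.153). IFITM3 was at 63.8 and 69.8 against 70.8 and 73.2 CPM and was not called (0.09; edgeR, adjusted p = 0.343). The gene models of IFITM1 and IFITM2 overlap in GENCODE 29 and the family is closely related in sequence, so that the division of reads among its members is uncertain. RSAD2, or viperin, one of the genes most strongly induced by type I interferon, was at 1.61 and 2.02 against 1.45 and 2.21 CPM and its change was 0.01 (edgeR, adjusted p = 0.993).

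Of the ISG15 system and the ubiquitin and ADP-ribose enzymes, PARP14 rose and the other 6 tested members were not called, against 13.3% of all genes called higher. PARP14 (ENSG00000173193; chromosome 3, 122680618 to 122730840), a mono-ADP-ribosyltransferase, stood at 35.5 and 37.7 CPM in mock and 47.5 and 45.7 CPM in JAZF1-SUZ12 libraries, without overlap. This was a rise of 0.33 on the log2 scale (standard error 0.07; edgeR, adjusted p = 0.00331), called in each of 12 alternatives but not in the authors' deposited table (0.28, adjusted p = 0.380). PARP9 and DTX3L, which form a complex and lie 116 and 105 kb from PARP14, had changes of -0.02 and 0.08 (edgeR, adjusted p = 0.938 and 0.625). ISG15 was at 11.2 and 9.91 CPM in mock and 10.8 and 11.01 CPM in JAZF1-SUZ12 libraries, with overlap (0.03; edgeR, adjusted p = 0.893). USP18, the protease that removes ISG15 and restrains the receptor, was at 4.11 and 3.48 against 4.05 and 5.04 CPM (0.25; edgeR, adjusted p = 0.473). HERC6 had 31 counts in each mock library against 29 and 76 with the fusion, so that its value of 0.69 came mainly from replicate 2 (edgeR, adjusted p = 0.188). TRIM22, a ubiquitin ligase, was at 1.17 CPM in each mock library and at 1.10 and 1.19 CPM in the others.

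Among the 8 other induced genes tested, LGALS3BP rose and IFI30 fell, against 13.3% and 11.4% of all genes called higher and lower. LGALS3BP (ENSG00000108679; chromosome 17, 78971238 to 78980109, minus strand), a secreted glycoprotein that binds galectins, had 205 and 203 counts in mock and 371 and 514 in JAZF1-SUZ12 libraries, or 10.03 and 9.53 against 21.5 and 21.05 CPM. Its replicates nearly coincided in both groups. It rose by 1.10 on the log2 scale (standard error 0.11; edgeR, adjusted p = 3.81e-06), between 1.05 and 1.13 over 12 alternatives, and the authors' deposited table gave 1.12 with an adjusted p of 2.52e-05. Its counts were whole within 0.001 in every library, as were those of 12 members in all, BST2 and ISG15 among them. IFI30, the lysosomal thiol reductase GILT of antigen processing, was at 54.6 and 49.5 CPM in mock and 42.7 and 46.4 CPM in JAZF1-SUZ12 libraries. It fell by 0.24 on the log2 scale (standard error 0.07; edgeR, adjusted p = 0.0193), a call lost with DESeq2 (adjusted p = 0.0839), without JAZF1-SUZ12 replicate 1 (0.0636) and without mock replicate 1 (0.149), and not made in the authors' deposited table (adjusted p = 0.272). IFI6, a mitochondrial and endoplasmic reticulum protein, was at 2.15 and 2.25 against 3.36 and 3.19 CPM, without overlap but not called (0.55; edgeR, adjusted p = 0.170). IFI27, IFI35, SAMD9, SAMD9L and XAF1 had changes between -0.08 and 0.29 and overlapping groups, and none was called.

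The 5 members too low to be tested were OASL, IFIT5, HERC5, IFI44 and IFI44L. IFI44 had 0 counts in every library, where 3 counts would be 0.123 to 0.174 CPM. IFIT5 had 2 and 0 counts in mock and 8 and 5 in JAZF1-SUZ12 libraries, HERC5 3 and 5 against 5 and 9, OASL 3 and 7 against 8 and 5, and IFI44L 5 and 3 against 1 and 12. These counts are too few to set a direction.

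The pathway upstream of the members was read from a list of 46 genes, of which 26 were tested. Among these, 1 was called, against the 24.7% of all genes, and the median log2 fold change was -0.054. STING1 (chromosome 5, 139475534 to 139482935), the adaptor that relays the cytosolic DNA sensor cGAS, fell. It stood at 60.3 and 59.9 CPM in mock and 43.7 and 45.4 CPM in JAZF1-SUZ12 libraries, with tight replicates and a wide gap. The fall of -0.45 on the log2 scale (standard error 0.06; edgeR, adjusted p = 7.97e-05) was called in each of 12 alternatives, and the authors' deposited table gave -0.46 with an adjusted p of 0.00413. All 10 interferon genes on the list were at or under 3 counts in every library, 8 of them at 0, so that none of these 10 was detected above the floor. The type I interferon genes lie in the segment known to be deleted in K562. Counts of the type I genes therefore cannot show whether these genes were induced. IFNG on chromosome 12 and IFNL1, IFNL2 and IFNL3 on chromosome 19 lie elsewhere and had 0 counts in both JAZF1-SUZ12 libraries. In mock, IFNL1 had 2 counts in replicate 1, and the other genes of this group had 0 in both libraries. IFNAR1 was at 73.9 and 79.1 CPM in mock and 73.5 and 73.1 CPM in JAZF1-SUZ12 libraries, and IFNAR2 at 20.98 and 24.4 against 25.5 and 23.2 CPM. Of 5 tested receptors and 4 signalling genes, 0 were called by edgeR, DESeq2 or limma-voom, and 0 had an unadjusted p under 0.05 in edgeR. Over all genes, 24.7% were called with edgeR and 16.3% with DESeq2, and these sets are small to set beside such shares.

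Genes typical of interferon-gamma and chemokine responses were read from a list of 18, of which 12 were tested, with 1 called higher and 1 lower, against 13.3% and 11.4% of all genes, and a median log2 fold change of 0.099. ICAM1, an adhesion molecule, fell from 30.7 and 32.2 CPM in mock to 24.04 and 25.1 CPM in JAZF1-SUZ12 libraries (log2 fold change -0.38; edgeR, adjusted p = 0.00303). The authors' deposited table gave -0.41 for it and did not call it (adjusted p = 0.0978). NLRC5, the transactivator of MHC class I genes, had 3 and 12 counts in mock and 23 and 29 in JAZF1-SUZ12 libraries and rose by 1.77 on the log2 scale (edgeR, adjusted p = 0.0394). Its call rests on few counts. It was not called with DESeq2, or without either JAZF1-SUZ12 replicate. Without mock replicate 1 the value was 1.115 and was not called, without mock replicate 2 it was 3.015, and the authors' deposited table gave 1.05 with an adjusted p of 0.707.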

How the data were processed

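Poly(A)-selected, directional libraries were made from 4 samples, per the labels' protocols. The submitters' processing notes name hg38, fastp 0.20.1, kallisto 0.46.2 and DESeq2 1.30.1, with no role or order. The authors deposited estimated counts per gene, not normalized, of which 29.2% to 32.8% per library were not whole within 0.001. They were rounded before testing, because the design had assumed a count test. The authors' deposited table of their comparison holds, per the file headers, a mean signal of depth-normalized counts, a log2 fold change with its standard error, a test score, and p-values and adjusted p-values.

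Genes were kept with filterByExpr by group (14750 of 35606), scaled with TMM and tested with edgeR 4.0.16 (quasi-likelihood F test, group as the only term, R 4.3.3). Two-sided p-values received the Benjamini-Hochberg adjustment over all genes tested, with 0.05 as threshold. The standard error is the size of the change divided by the square root of F. Intervals are 95%, on the total degrees of freedom. CPM are rounded counts over the library total. The floor is 3 counts in a library and covers counting error only. Positions are from GENCODE 29, promoters from RefSeq (GRCh38.p14, 35 of 43 members matched by symbol). The tests were tested on simulated data. Alternatives were DESeq2 1.42.0, limma-voom (limma 3.58.1), DESeq2 size factors, total counts, other filters, a threshold of 0.01, the replicate number as a block, and leaving out each library.

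The members and lists were chosen with earlier results of these data known. A gene of the pathway list is not reported here. Full values are given for every called member and for the tested member of each role with the highest mean count; other genes are named as members, or as ligand, receptor or called genes of the lists, and values of further uncalled members were added after they were seen.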

Additional observations from a re-analysis of the deposited data

How the results depend on the processing

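OAS3, LGALS3BP, MX2 and PARP14 were called in the same direction under all 12 alternatives. The 8 members called of 38 tested became 5 of 38 with DESeq2, of which 1 was lower. Over all genes the share called was 24.7% in the main test and 16.3% with DESeq2. At an adjusted p of 0.01, 4 members were called, of which 0 were lower. When 1 library was left out, with the lone sample assumed to vary like the other group, 5 to 7 members were called, 5 without mock replicate 1, and 0 to 2 of these were lower, 0 without mock replicate 1 and 1 without JAZF1-SUZ12 replicate 1. Higher calls numbered 4 or 5 throughout. Calls over all genes also fell with DESeq2 and without JAZF1-SUZ12 replicate 2, mock replicate 1 or mock replicate 2. They did not fall without JAZF1-SUZ12 replicate 1. A loss of calls in the former fits was thus not particular to the members. The stricter threshold reduces counts by construction, and otherwise the cause was not tested. The members' median log2 fold change ranged from 0.021 to 0.242 when 1 library was left out, the highest without JAZF1-SUZ12 replicate 1. With no filter it was 0.181 over 42 members, against 0.096 over 38, while that of all genes was 0.027.

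The 1 pathway gene called became 2 with total counts, with a mean of at least 50 counts and with the replicate block, where SOCS3 was added, and 2 with no filter, where TREX1 was added. It was 1 to 2 when 1 library was left out, with SOCS3 added without JAZF1-SUZ12 replicate 1, TYK2 without JAZF1-SUZ12 replicate 2 and IRF3 without mock replicate 1. The 2 interferon-gamma and chemokine targets called became 1 with DESeq2, with a mean of at least 50 counts and at an adjusted p of 0.01, and 1 to 2 when 1 library was left out, 1 without JAZF1-SUZ12 replicate 2 or mock replicate 1. Without JAZF1-SUZ12 replicate 1, TAP1 took the place of NLRC5. STAT2 changed sign, uncalled, to 0.017 with total counts and 0.018 with a mean of at least 50 counts, and ranged from -0.15 to 0.11 when 1 library was left out. In those fits ZC3HAV1 ranged from -0.13 to 0.011, OAS1 from -0.41 without JAZF1-SUZ12 replicate 2 to 0.44, and ISG15 from -0.061 without mock replicate 2 to 0.11, none of them called. Over all genes, 3643 calls became 2407 with DESeq2, more than a 1.5-fold change.

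With the replicate block, 8 members were called and 4061 genes overall. The deviations of same-numbered libraries correlated at -0.00072 over 14750 genes, so that no common shift was seen over all genes together. This value cannot tell whether same-numbered libraries shared a culture, a day or a batch, which was not tested.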
